A study of Mus musculus with 6 samples.

Results

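Loss of Lef1 alone was examined in hair germ cells by comparing the 2 LEF1cKO libraries with the 2 WT libraries, which are 4 of the 6 RNA-seq libraries of the study and were chosen by their titles. The WT mice carried Sox9-CreER;R26-lox-stop-lox-YFP, a Cre that tamoxifen can switch on in Sox9-expressing cells together with a reporter that turns yellow fluorescent after recombination. The LEF1cKO mice carried the same alleles and Lef1fl/fl, and Tcf7 was intact in both groups. All mice were 60 days old (P60), the sex of every sample is labelled as mixed, and the cells were taken from back skin 3 days after depilation. They were sorted with YFP, integrin b1, CD34, Sca-1 and Pcadherin, and YFP marks cells in which Sox9-CreER had acted. The remaining 2 libraries came from mice that also lacked Tcf7 (Lef1fl/fl;Tcf7-/-, below the double knockout). They entered the choice of genes tested, the normalisation and the estimate of the spread, and are quoted where a value bears on a result.

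The hair germ is the small cluster of stem and progenitor cells at the base of the resting hair follicle, which is the first to divide when a new hair cycle starts. LEF1, TCF7, TCF7L1 and TCF7L2 are the DNA-binding partners of beta-catenin: they occupy Wnt-responsive genes, repress them with corepressors when beta-catenin is absent, and activate them when it arrives. In skin, LEF1 is known for its role in the precursor cells of the hair shaft.

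The 4 libraries held between 49656967 and 63220022 expected counts, and the 2 double knockout libraries 40480694 and 42987210. Of 46517 genes listed, 19640 had enough counts to be tested. Levels below are TPM, which is scaled for gene length, and are given for replicate 1 and then replicate 2. Changes are log2 fold changes of counts ± SE with Benjamini-Hochberg adjusted p-values from edgeR's quasi-likelihood test over all genes tested. The SE was worked back from that test, as the size of the change divided by the square root of its F statistic. It is not a directly estimated standard error, and it is uncertain for genes that are nearly empty in a group. A gene is said to have risen or fallen only at an adjusted p of 0.05 or below. Nothing in the labels ties the 2 libraries of a group to separate animals, and the p-values therefore measure only the spread between these samples. In a sorted population, fewer cells of a kind and less RNA per cell cannot be told apart.

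The targeted gene was lower but still present in the knockout. Lef1 (chr3:131110471-131224356, GRCm38) stood at 21.4 and 20.4 TPM in WT and at 13.5 and 8.37 TPM in LEF1cKO. Both knockout libraries lay below both WT libraries, and replicate 2 was lower than replicate 1. The log2 change was -0.92 ± 0.25 and did not pass the test (adjusted p = 0.282). It passed without LEF1cKO replicate 1 (-1.36, adjusted p = 0.0317). A value per gene does not show which exons the reads came from, so it does not measure how much of the floxed allele was recombined.

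The other LEF/TCF genes gave no call, and the libraries of the groups overlapped for all 3 on the scale of normalised counts. On the TPM scale both LEF1cKO libraries lay above both WT libraries for Tcf7l2, at 28.7 and 25.9 against 23.9 and 24.2 TPM. The WT libraries held Tcf7 at 26.9 and 36.0 TPM and the LEF1cKO libraries at 29.3 and 27.8 TPM, a log2 difference of -0.25 ± 0.20 (adjusted p = 0.792). Tcf7l1 had a log2 difference of -0.17 ± 0.17 (adjusted p = 0.840), which was 0.01 without LEF1cKO replicate 2. Tcf7l2 had one of 0.11 ± 0.11 (adjusted p = 0.861), which was -0.01 without LEF1cKO replicate 1. Axin2, a feedback inhibitor that most Wnt-responding cells induce, stood at 25.8 and 27.9 TPM in WT and at 21.5 and 27.4 TPM in LEF1cKO (log2 difference -0.31 ± 0.12, adjusted p = 0.466). Its libraries overlapped on the TPM scale and were separate on the count scale. None of the 17 tested genes of a list of Wnt targets and feedback genes passed the test (3 were separate and higher, 2 separate and lower). Their median log2 difference was 0.12, beside 0.006 over all genes tested.

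The cells carried the hair germ genes in both groups. Cdh3, which encodes the P-cadherin used in the sort, stood at 134 and 130 TPM in WT and at 134 and 116 TPM in LEF1cKO. The hair germ transcription factor Lhx2 stood at 337 and 381 TPM in WT and at 402 and 368 TPM in LEF1cKO. Both genes overlapped between the groups. Over a list of 28 hair germ and matrix genes, none passed the test and the median log2 difference was -0.04. The defining markers of endothelial cells (Pecam1, Cdh5) summed to between 4.27 and 5.96 TPM in the 4 libraries, and those of Merkel cells to at most 0.02 TPM. Other cell types were present: the melanocyte markers (Dct, Tyr, Pmel) summed to 403 and 274 TPM in WT and to 258 and 169 TPM in LEF1cKO. The fibroblast markers (Col1a1, Pdgfra, Dcn) summed to 168 and 90.8 TPM in WT and to 179 and 366 TPM in LEF1cKO, and the leukocyte markers (Ptprc, Cd3e, Cd207) to between 1.24 and 5.76 TPM.

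Few genes differed between LEF1cKO and WT by this test, and most of the genes that fell are annotated as pseudogenes. Of 19640 genes, 118 passed the test (0.601%), of which 44 rose (0.224%) and 74 fell (0.377%). At an unadjusted p under 0.05 there were 1882 genes. All 118 were fully separate between the groups. Over all genes tested, both LEF1cKO libraries lay above both WT libraries for 4144 genes (21.1%) and below them for 4130 (21.0%) on the scale of normalised counts. On the TPM scale the same split was 5567 higher and 2632 lower. Separation of the libraries alone is thus common in these data, and a share near 21.1% or 21.0% is not a result about a group of genes.

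Of the 118 genes, 50 are annotated as pseudogenes, 4 that rose and 46 that fell. Some have the same values in every library and are not separate observations. These are Gm10359, Gm12671 and Gm7336 among the rises, and Gm10240 with Gm13370 and Gm13841 with Gm8210 among the falls. The 50 pseudogenes make up 42.4% of the genes called, and pseudogenes make up 4.8% of the genes tested. Another 47 are protein-coding genes with a gene name, 36 that rose and 11 that fell, which is 0.323% of the 14562 such genes tested. When the counts of genes with near-identical coding sequences were summed before the test, 55 of the 118 genes were still called, 35 of the 47 among them. This alternative was chosen after the data were seen. Depending on which library was left out, between 58 and 83 of the 118 genes remained called.

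**Figure D1:**
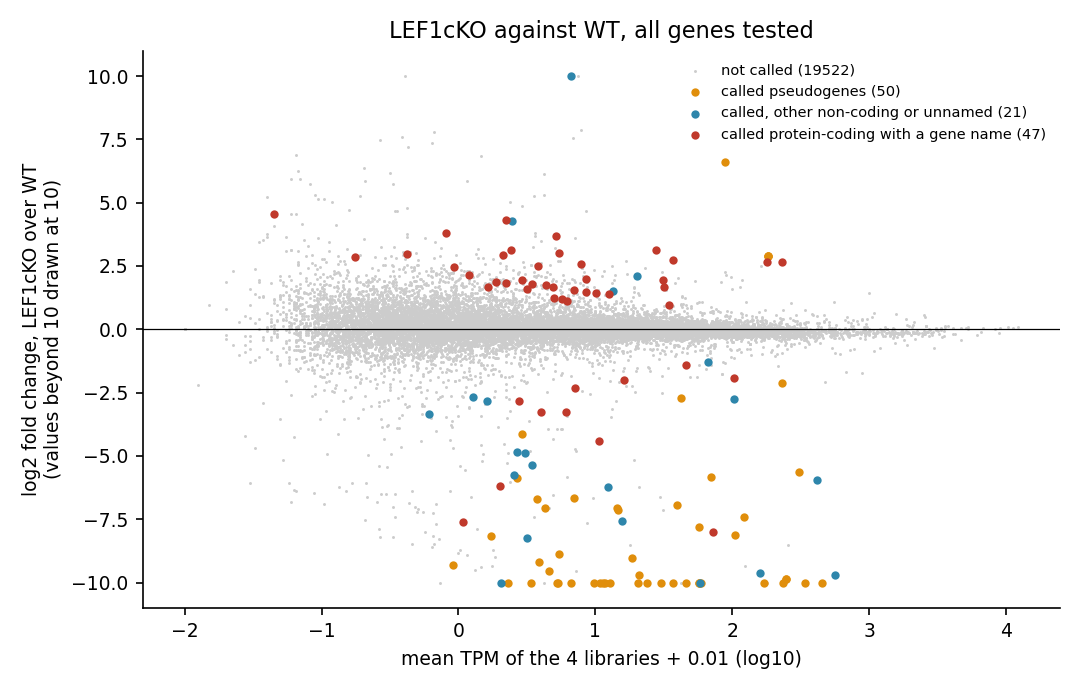
Log2 fold change of LEF1cKO over WT for the 19640 genes tested, against the mean TPM of the 4 libraries on a log10 scale; each point is 1 gene, and values beyond 10 are drawn at 10. The 50 called pseudogenes (orange) lie almost wholly below the line at 0, and the 47 called named protein-coding genes (red) mostly above it.

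Genes of the circadian clock's output were higher in the knockout. The clock is a transcription loop in which CLOCK and ARNTL activate genes through E-boxes, among them their own repressors and the D-box factors Dbp, Tef and Hlf. Of 14 tested genes with E-box or D-box control, 3 rose, none fell, and 10 were separate and higher. Their median log2 difference was 1.33 and they ranged from 0.03 to 3.13. Of 7 genes in the arm that answers to ROR and REV-ERB receptors, Rora alone rose.

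Nr1d1, which encodes the repressor REV-ERB alpha, stood at 5.70 and 5.25 TPM in WT and at 52.8 and 47.7 TPM in LEF1cKO. All knockout values were several times all WT values, with a log2 change of 3.13 ± 0.21 (adjusted p = 0.00387). Its relative Nr1d2 stood at 15.6 and 13.8 TPM in WT and at 52.4 and 45.3 TPM in LEF1cKO, a rise of 1.66 ± 0.19 (adjusted p = 0.0245). Tef, a D-box activator, stood at 13.2 and 11.5 TPM in WT and at 52.5 and 48.3 TPM in LEF1cKO, a rise of 1.95 ± 0.23 (adjusted p = 0.0286). In each of the 3 genes the libraries of a group lay close together and far from the other group. Rora, which encodes a receptor that activates Arntl, was at 2.43 and 1.79 TPM in WT and at 6.68 and 6.62 TPM in LEF1cKO, a rise of 1.76 ± 0.21 (adjusted p = 0.0308).

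Several other clock genes were separate and did not pass the test. Dbp, the D-box activator that is best known as a clock output, stood at 4.05 and 4.46 TPM in WT and at 27.5 and 31.2 TPM in LEF1cKO. Its log2 difference was 2.71 ± 0.48 (adjusted p = 0.108). Per3, a repressor of the loop, had a difference of 1.21 ± 0.17 (adjusted p = 0.0556), from 3.16 and 3.19 TPM in WT to 9.10 and 7.28 TPM in LEF1cKO. Ciart, another repressor of CLOCK and ARNTL, had one of 1.69 ± 0.28 (adjusted p = 0.0919), from 1.93 and 1.99 TPM to 9.25 and 6.50 TPM. Hlf, the third D-box factor, had one of 1.45 ± 0.23 (adjusted p = 0.0857). Per1 overlapped between the groups, at 56.2 and 65.2 TPM in WT and at 81.8 and 46.5 TPM in LEF1cKO. Arntl, the activator, stood at 15.7 and 16.3 TPM in WT and at 9.08 and 15.3 TPM in LEF1cKO (-0.48 ± 0.21, adjusted p = 0.558). Both of its knockout values lay below both WT values.

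The call of Nr1d1 held whichever library was left out (adjusted p at most 0.0313). That of Tef was lost without any 1 of the 4 libraries compared (adjusted p up to 0.192), and that of Nr1d2 without either WT library or LEF1cKO replicate 1 (up to 0.188). That of Rora was lost without any library but WT replicate 1 (up to 0.121), with only the 4 libraries compared (0.0603), and by limma on log2(TPM + 1) (0.121) and log2(TPM + 0.1) (0.0791). Nr1d1 kept its call under every alternative run. The labels do not give the hour of collection. In the double knockout, which is compared with the same WT libraries, Nr1d1 stood at 64.0 and 92.3 TPM, Tef at 38.7 and 57.6 TPM, and Dbp at 12.01 and 35.0 TPM.

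**Figure D2:**
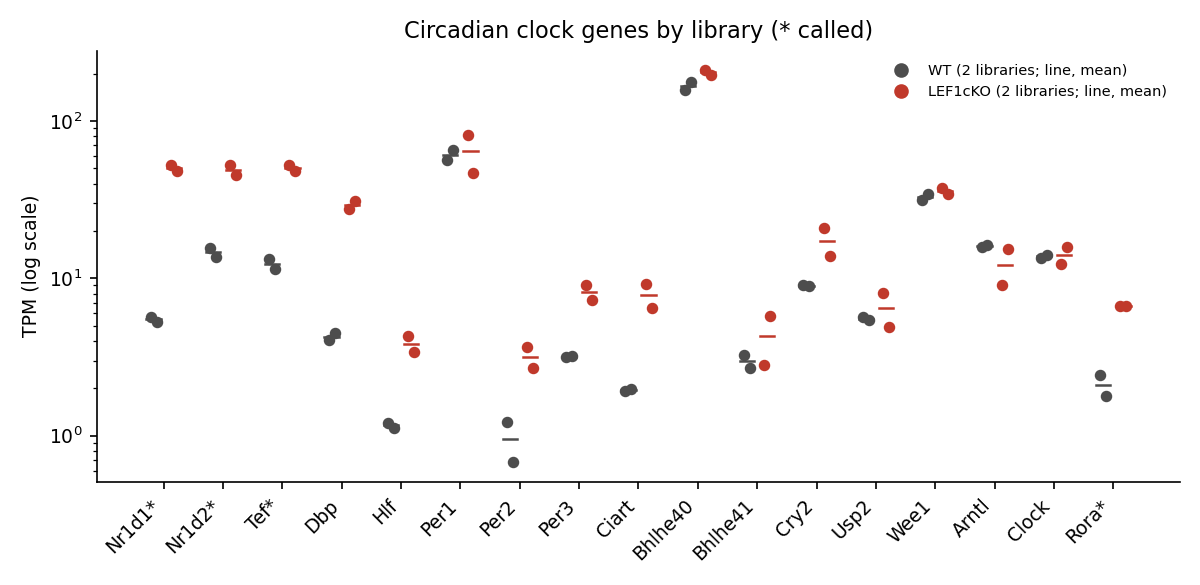
TPM on a log scale of 17 clock genes in each library; points are libraries, lines are group means of 2, and an asterisk marks a call. The LEF1cKO points of Nr1d1, Nr1d2, Tef, Dbp, Per3 and Ciart stand well above the WT points, while those of Per1 and Clock lie on both sides of them.

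Some of these promoters carry the letters that clock factors recognise, and 3 stretches are shown to let the match be read. They are RefSeq sequences of GRCm38.p6, written in the direction of transcription, with capitals for the E-box CACGTG in Tef and Ciart and for the D-box TTATGTAA in Per3. The stretch of Tef is chr15:81802526-81802645 on the plus strand, that of Ciart chr3:95882245-95882364 on the minus strand, and that of Per3 chr4:151044771-151044890 on the minus strand.
Tef: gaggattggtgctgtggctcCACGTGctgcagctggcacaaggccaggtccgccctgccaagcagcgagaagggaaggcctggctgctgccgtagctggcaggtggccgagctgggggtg
Ciart: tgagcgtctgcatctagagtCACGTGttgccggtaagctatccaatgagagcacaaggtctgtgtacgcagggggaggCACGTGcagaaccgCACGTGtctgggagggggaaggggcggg
Per3: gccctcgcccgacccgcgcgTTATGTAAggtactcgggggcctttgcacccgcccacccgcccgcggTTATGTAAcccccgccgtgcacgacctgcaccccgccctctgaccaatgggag
Tef holds 1 E-box, Ciart 3 and Per3 2 D-boxes in the 250 bases before the start. Both strands were searched in that window. CACGTG occurred in 4 of the 11 genes of the E-box and D-box list that had a window (36.4%), in 9.33% of the genes tested and in 6.86% of all genes with a window. TTATGTAA occurred in 1 of the 11, in 0.604% of the genes tested and in 0.977% of all genes. Of 31 protein-coding genes that rose and had a window, 3 held CACGTG (9.68%), as did 1 of 9 that fell (11.1%). Both shares lie near the 9.33% of the genes tested. Nr1d1 and Nr1d2, which rose, and Dbp held neither motif in their windows, while Per1, which overlapped between the groups, held CACGTG. The list was made of genes with E-box or D-box control, so a share above the background can follow from that choice. The shares describe letters in a window and do not measure binding.

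Several keratins of the upper, differentiating layers of the epidermis were higher in the knockout. Of 11 suprabasal keratins tested, Krt2, Krt77 and Krt78 rose, none fell, and 7 were separate and higher. The 2 that were separate and lower were Krt13 and Krt79. The median log2 difference was 1.09, and the list ranged from -4.69 to 4.30. Krt77, a type II keratin of mouse epidermis, stood at 74.7 and 44.5 TPM in WT and at 382 and 418 TPM in LEF1cKO, a rise of 2.67 ± 0.26 (adjusted p = 0.0154). Krt78 stood at 1.30 and 1.01 TPM in WT and at 10.5 and 9.0 TPM in LEF1cKO, a rise of 3.01 ± 0.18 (adjusted p = 0.0032). Both were raised in both knockout libraries to about the same level. Krt2, a keratin of the late spinous and granular layers, stood at 0.21 and 0.20 TPM in WT and at 4.79 and 3.72 TPM in LEF1cKO, a rise of 4.30 ± 0.52 (adjusted p = 0.0308).

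Krt1 and Krt10, the main keratin pair of differentiating epidermis, were far more abundant and just missed the threshold. Krt1 stood at 367 and 315 TPM in WT and at 722 and 807 TPM in LEF1cKO (1.09 ± 0.15, adjusted p = 0.0523). Krt10 stood at 587 and 437 TPM in WT and at 1493 and 1440 TPM in LEF1cKO (1.45 ± 0.20, adjusted p = 0.0515). Both were separate between the groups. Krt79, a keratin of the follicle's upper duct, stood at 688 and 622 TPM in WT and at 191 and 645 TPM in LEF1cKO, with the knockout libraries on either side of the lower WT value on this scale. Krt13, a keratin of internal stratified epithelia, stood at 1.79 and 1.76 TPM in WT and at 0 and 0.06 TPM in LEF1cKO, and did not pass the test (-4.69 ± 1.01, adjusted p = 0.178).

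Several Skint genes also were higher. The family encodes butyrophilin-like surface proteins of the epidermis and thymus that are known for the selection of skin gamma-delta T cells. Of 11 tested, 5 rose, none fell, 6 were separate and higher, and the median log2 difference was 1.46. Levels of the whole list summed to 50.65 and 44.64 TPM in WT and to 55.2 and 118.7 TPM in LEF1cKO. The list was higher in knockout replicate 2 than in replicate 1 by a median of 0.64, with 9 of the 11 genes higher there. Skint5 stood at 0.66 and 0.50 TPM in WT and at 4.33 and 4.22 TPM in LEF1cKO, a rise of 3.12 ± 0.29 (adjusted p = 0.0136). Skint6 stood at 0.59 and 0.36 TPM in WT and at 3.47 and 4.06 TPM in LEF1cKO, a rise of 2.92 ± 0.26 (adjusted p = 0.0122). Their knockout libraries lay within 1 TPM of each other. Skint7 was at 0.84 and 0.58 TPM in WT and differed more between the knockout libraries, at 5.78 and 13.5 TPM, with a rise of 3.68 ± 0.43 (adjusted p = 0.0264). Skint9 rose by 1.46 ± 0.20 (adjusted p = 0.0462), and Skint11 by 1.85 ± 0.24 (adjusted p = 0.038). Skint10 differed by 1.49 ± 0.27 and did not pass (adjusted p = 0.114). Skint1, the best-known member, overlapped between the groups, at 14.2 and 11.6 TPM in WT and at 5.68 and 26.1 TPM in LEF1cKO. The 5 genes that rose lie together at chr4:111972923-114245028 (GRCm38). The called type II keratins lie at chr15:101689910-101954287, which holds Krt2, Krt77 and Krt78 and also Krt6a, which fell.

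Of 32 genes of the cornified envelope, the crosslinked protein shell of dead surface cells, Ppl rose, 14 were separate and higher, and the median log2 difference was 0.64. Ppl, which encodes periplakin, stood at 22.2 and 22.9 TPM in WT and at 41.0 and 50.98 TPM in LEF1cKO, a rise of 0.95 ± 0.12 (adjusted p = 0.0351). Of 23 genes for the lipids of the skin barrier, none passed, 12 were separate and higher, and the median was 0.71. The markers of interfollicular epidermis (Krt1, Krt10 and Ly6a, the gene of Sca-1) summed to 981 and 766 TPM in WT and to 2236 and 2293 TPM in LEF1cKO, and to 9208 and 8980 TPM in the double knockout. Most of this sum was Krt1 and Krt10. Ly6a overlapped between the groups, at 26.5 and 14.7 TPM in WT and at 21.8 and 45.9 TPM in LEF1cKO. Of 27 leukocyte genes tested, 14 were separate and higher, and their levels summed to 336 and 292 TPM in WT and to 375 and 464 TPM in LEF1cKO. The 24 fibroblast and dermal papilla genes, of which 13 were separate and higher, summed to 748 and 446 TPM in WT and to 799 and 1421 TPM in LEF1cKO. The part of these other cell types in the epidermal and Skint values was not tested.

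The calls of Krt78 (adjusted p at most 0.0213), Skint5 (0.0431) and Skint6 (0.0492) held whichever library was left out. That of Krt77 was lost without either double knockout library (up to 0.069), and that of Krt2 without any 1 of the 4 libraries compared (up to 0.188). That of Skint7 was lost without either WT or either double knockout library (up to 0.164), those of Skint9 and Ppl without any library but LEF1cKO replicate 1 (up to 0.289 and 0.295), and that of Skint11 whichever library was left out (up to 0.243). With only the 4 libraries of the groups compared, the calls of Krt77 (0.0531), Skint5 (0.0565), Skint6 (0.0606), Skint7 (0.105), Skint9 (0.151), Skint11 (0.153) and Ppl (0.0739) were lost. Skint5 was also lost by limma on log2(TPM + 1) (0.0559), as were Krt2 (0.0507), Skint7 (0.0642), Skint9 (0.0777) and Skint11 (0.232). Krt78 kept its call under every alternative run.

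**Figure D3:**
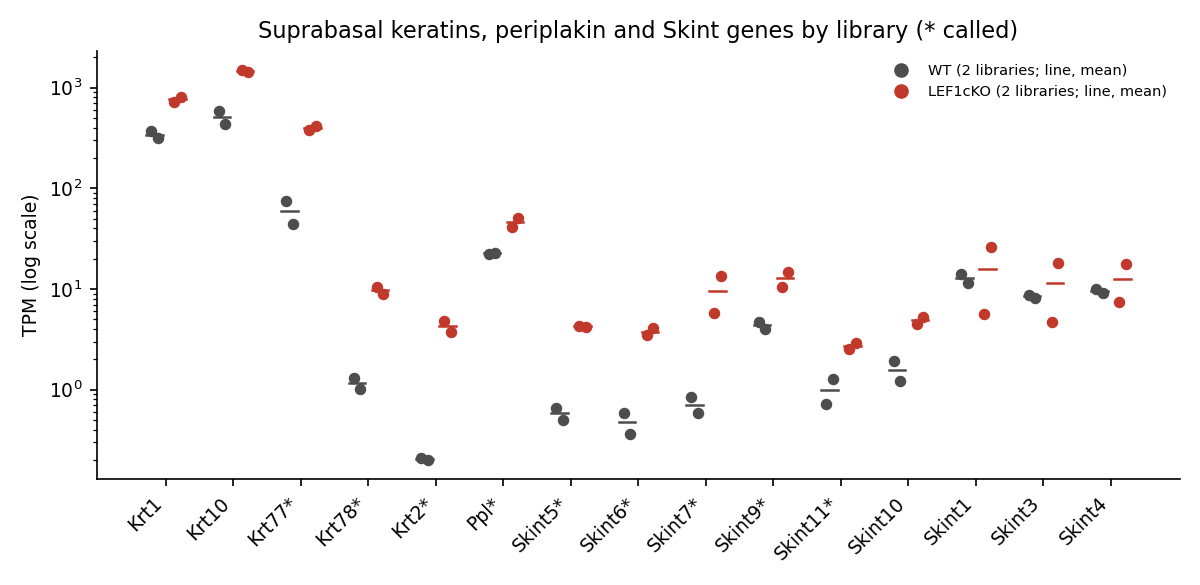
TPM on a log scale of 5 suprabasal keratins, Ppl and 9 Skint genes in each library; points are libraries, lines are group means of 2, and an asterisk marks a call. Krt77, Krt78, Krt2, Skint5 and Skint6 have tight knockout pairs far above WT, whereas in Skint1, Skint3 and Skint4 one knockout library lies above and the other below WT.

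The promoter of Krt2 was the single one among the genes named here as risen that held the core letters of a LEF/TCF site, and it is shown for that reason. The stretch is chr15:101818246-101818365 on the minus strand (RefSeq, GRCm38.p6), written in the direction of transcription, with the match to CTTTGAT in capitals as it reads on the other strand.
Krt2: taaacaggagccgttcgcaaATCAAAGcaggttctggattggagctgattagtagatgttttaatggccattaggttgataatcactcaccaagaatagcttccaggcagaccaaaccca
Of 31 protein-coding genes that rose and had a window, 2 held CTTTGAT or CTTTGAA on either strand in the 250 bases before the start (6.45%), namely Krt2 and Cyp3a13, the latter named after its value was seen. The share was 6.64% of the genes tested and 8.63% of all genes with a window. None of the 9 protein-coding genes that fell and had a window, and none of the 11 clock genes, held either. A missing match says only that these letters are not in this window.

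The other named genes that rose have varied roles. Igfbp3, which encodes a binding protein that holds insulin-like growth factors, stood at 9.36 and 8.54 TPM in WT and at 51.5 and 77.0 TPM in LEF1cKO, a rise of 2.74 ± 0.18 (adjusted p = 0.00387). It was the single call among 14 genes of the insulin-like growth factor axis, of which 5 were separate and higher and 1 separate and lower. Pla2g4f, a cytosolic phospholipase A2, stood at 3.59 and 3.03 TPM in WT and at 12.3 and 15.2 TPM in LEF1cKO, a rise of 1.98 ± 0.13 (adjusted p = 0.00387). Gdpd2, a glycerophosphodiester phosphodiesterase, stood at 3.03 and 1.71 TPM in WT and at 11.95 and 14.8 TPM in LEF1cKO, a rise of 2.58 ± 0.25 (adjusted p = 0.0155). In all 3, both knockout libraries were several times above both WT libraries, and replicate 2 was the higher one. Gsg1l, an auxiliary subunit of AMPA receptors, stood at 0.99 and 1.2 TPM in WT and at 7.36 and 5.69 TPM in LEF1cKO, a rise of 2.50 ± 0.25 (adjusted p = 0.0161). Perm1, a regulator of mitochondrial genes in muscle, rose by 1.79 ± 0.17 (adjusted p = 0.0154), and its neighbour Plekhn1 by 1.39 ± 0.15 (adjusted p = 0.0234), both within chr4:156215868-156234857. Pkhd1l1, which encodes a large membrane protein related to fibrocystin, rose by 1.67 ± 0.17 (adjusted p = 0.019), and Ankrd35 by 1.54 ± 0.19 (adjusted p = 0.0308).

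Gsg1l and Pkhd1l1 stood lower in the double knockout than in LEF1cKO: Gsg1l at 2.26 and 2.61 TPM and Pkhd1l1 at 1.42 and 1.30 TPM there, whereas Igfbp3 stood at 274 and 278 TPM. These differences between the knockouts were not tested here. The calls of Igfbp3 (adjusted p at most 0.0314) and Pla2g4f (0.0312) held whichever library was left out. That of Gdpd2 was lost without either double knockout library (up to 0.0717), that of Gsg1l without either WT or either double knockout library (up to 0.0957), and that of Perm1 without WT replicate 2 or either double knockout library (up to 0.0945). That of Plekhn1 was lost without any library but WT replicate 1 (up to 0.1), that of Pkhd1l1 without WT replicate 1, LEF1cKO replicate 1 or either double knockout library (up to 0.0823), and that of Ankrd35 without any library but LEF1cKO replicate 1 (up to 0.192). With only the 4 libraries compared, the calls of Gdpd2 (0.0736), Perm1 (0.0739), Plekhn1 (0.0967), Pkhd1l1 (0.0624) and Ankrd35 (0.0739) were lost, whereas Igfbp3 and Pla2g4f kept theirs under every alternative run.

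Among the falls of ordinary genes were a keratin of the companion layer and a gene of cell division. Krt6a, a keratin of the companion layer of the follicle and of wounded epidermis, stood at 157 and 166 TPM in WT and at 35.2 and 55.0 TPM in LEF1cKO, a log2 change of -1.93 ± 0.22 (adjusted p = 0.0236). Krt6b, its neighbour, holds 965 of the 1609 windows of 51 bases in the Krt6a coding sequence. It stood at 26.8 and 22.4 TPM in WT and at 2.28 and 5.16 TPM in LEF1cKO and did not pass the test (-2.82 ± 0.68, adjusted p = 0.226). Summed, and scaled to library size as CPM, the pair held 255 and 257 CPM in WT and 49.9 and 79.9 in LEF1cKO, and the sum fell by 2.02 ± 0.24 on the log2 scale (adjusted p = 0.0451). Both knockout libraries were thus below both WT libraries for the pair as a whole. In the double knockout the sum stood at 156 and 212 CPM. Of 6 genes of the companion layer and stress list, 1 fell and 4 were separate and lower, with a median of -0.69.

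Pttg1, the securin that blocks the separation of sister chromatids until anaphase, stood at 68.9 and 64.1 TPM in WT and at 22.7 and 27.3 TPM in LEF1cKO. This was a fall with a log2 change of -1.40 ± 0.12 (adjusted p = 0.00945). It was the single call among 33 mitosis genes, of which 13 were separate and lower and none separate and higher. The median of the list was -0.20, and 32 of the 33 were lower in LEF1cKO replicate 2 than in replicate 1, Pttg1 being the exception. Among 30 genes of DNA replication none passed, 2 were separate and higher and 6 separate and lower, and the median was -0.05.

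Sqrdl, a mitochondrial sulfide oxidase, stood at 13.0 and 8.75 TPM in WT and at 1.41 and 1.19 TPM in LEF1cKO (-3.25 ± 0.36, adjusted p = 0.0223). Pianp, a ligand of the receptor PILR alpha, stood at 11.6 and 11.8 TPM in WT and at 2.2 and 2.82 TPM in LEF1cKO (-2.33 ± 0.24, adjusted p = 0.0173). Hddc3, a phosphohydrolase, stood at 25.9 and 25.2 TPM in WT and at 6.63 and 6.84 TPM in LEF1cKO (-2.0 ± 0.20, adjusted p = 0.0177). All 3 were low in both LEF1cKO libraries with no overlap. In the double knockout Sqrdl stood at 5.72 and 2.54 TPM, Pianp at 6.73 and 5.53 TPM and Hddc3 at 5.92 and 7.24 TPM. The labels do not give the strain background of the groups, and its part in these falls was not tested. Dnah7b, an axonemal dynein heavy chain, fell by 3.27 ± 0.23 on the log2 scale (adjusted p = 0.00411), and BC117090 had a log2 change of -4.42 ± 0.35 (adjusted p = 0.0066). When summed with their near-identical genes these changes were -2.18 (adjusted p = 0.0723) and -1.57 (adjusted p = 0.475), so both genes are uncertain.

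The calls of Dnah7b (adjusted p at most 0.0312) and BC117090 (0.0409) held whichever library was left out. That of Pttg1 was lost without either WT library (up to 0.1), that of Krt6a without any library but LEF1cKO replicate 2 (up to 0.11), and that of Pianp without LEF1cKO replicate 1 or either WT library (up to 0.0949). Those of Sqrdl and Hddc3 were lost without any 1 of the 4 libraries compared (up to 0.0936 and 0.128). With only those 4 libraries, that of Krt6a was lost (0.0606), and by limma on log2(TPM + 0.1) those of Sqrdl (0.0631) and Dnah7b (0.0748).

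The largest falls were of gene copies that were abundant in WT and nearly empty in the knockout. The labels do not give the strain background of either group. A difference in background and the loss of Lef1 therefore cannot be told apart, for these copies or for any other gene compared. Processed copies arise when a messenger RNA is copied back into the genome, and such a copy keeps the coding sequence of its parent gene nearly unchanged. Of the 74 genes that fell, 56 had a log2 change of -5 or lower, 43 of them pseudogenes, and 19 of the 56 stood at 100 TPM or more in both WT libraries. In 22 of the 56 both LEF1cKO libraries had 0 counts. Against a floor of 3 counts per library, the change was still at least that size for 54 of the 56, and the smallest bound on the log2 fall among those 22 was 4.32. In both double knockout libraries, which are set beside the same WT libraries, all 56 were at 10% or less of the lower WT library, and 39 were under 1%. Of genes at 5 TPM or more in both WT libraries, 30 were under 0.1 TPM in both LEF1cKO libraries, 25 of them pseudogenes. The reverse pattern held for 3 genes, none of them a pseudogene.

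Kpna2, an adaptor that carries proteins into the nucleus, had the smallest edgeR p-value among the called protein-coding genes with a gene name. Predicted genes with a Gm number are not counted among these. Its copy moved the other way. Kpna2 stood at 62.0 and 57.2 TPM in WT and at 319 and 276 TPM in LEF1cKO, a rise of 2.67 ± 0.14 (adjusted p = 0.00207). Gm10184, annotated as protein-coding, stood at 343 and 297 TPM in WT and at 0 and 0.84 TPM in LEF1cKO (-9.61 ± 0.96, adjusted p = 0.0308). The level of the pair thus sat on Gm10184 in WT and on Kpna2 in LEF1cKO. Summed, they held 463 and 397 CPM in WT and 363 and 318 in LEF1cKO, a log2 difference of -0.36 ± 0.14 that did not pass the test (adjusted p = 0.521). The call of Gm10184 was lost without either WT or either double knockout library (adjusted p up to 0.0945), by DESeq2 (0.14) and with only the 4 libraries compared (0.0565), and that of Kpna2 held whichever library was left out (at most 0.0213). None of the other 15 genes of a list of importins and nuclear transport factors passed.

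The sequences show how little separates the pair. Kpna2 lies at chr11:106988629-106999541 and Gm10184 at chr17:89908462-89910449 (GRCm38). They differ at 2 of 1587 coding bases, and 93.8% of the 51-base windows of the Kpna2 coding sequence occur unchanged in Gm10184. The stretch around 1 of the 2 differences is shown for each, bases 666 to 726 of the coding sequence of Kpna2, with the differing base in capitals.
Kpna2: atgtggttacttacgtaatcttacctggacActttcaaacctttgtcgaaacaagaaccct
Gm10184: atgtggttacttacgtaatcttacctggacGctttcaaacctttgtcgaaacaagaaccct
A read that does not reach such a base matches both genes equally, and RSEM then divides it between them by its model. The values of each gene alone are therefore uncertain, and the sum does not depend on how reads were divided between these 2 genes.

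Gapdh, the glycolytic enzyme, has many such copies, and they moved in both directions. Gm13394 stood at 851 and 948 TPM in WT and at 0 and 0.69 TPM in LEF1cKO (-11.40 ± 0.88, adjusted p = 0.00591). Gm10359 stood at 50.5 and 32.1 TPM in WT and at 337 and 315 TPM in LEF1cKO, a rise of 2.91 ± 0.27 (adjusted p = 0.0125). The copies Gm12671 and Gm7336 had the same values as Gm10359 in every library. One copy was thus nearly empty in the knockout while another held several times its WT level. Summed over Gapdh and 9 copies, the family held 1291 and 1367 CPM in WT and 1303 and 1222 in LEF1cKO (-0.10 ± 0.16, adjusted p = 0.924). Gapdh lies at chr6:125161715-125166467, Gm13394 at chr2:28933610-28934609 and Gm10359 at chr5:105862701-105863702. Over the 999 coding bases aligned, Gm13394 differs from Gapdh at 1 base and Gm10359 at none. That base, in capitals below, lies in bases 394 to 454 of the longest coding sequence of Gapdh.
Gapdh: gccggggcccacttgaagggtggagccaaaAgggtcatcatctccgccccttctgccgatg
Gm13394: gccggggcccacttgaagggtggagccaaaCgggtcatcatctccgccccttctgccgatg
Gm10359: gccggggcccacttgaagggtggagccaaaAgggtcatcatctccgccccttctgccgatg

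Among the genes with called copies were 7 ribosomal protein genes with 12 such copies. Summed with all their called copies, 3 of the 7 overlapped between the groups, 3 were separate and lower and Rpl21 was separate and higher, with log2 differences of the sums from -0.18 to 0.19. Rpl21 was also the relative of Gm28900, a called copy that rose. Rpl3-ps1, a copy of the large-subunit gene Rpl3, stood at 687 and 663 TPM in WT and had 0 counts in both LEF1cKO libraries, which makes it at least 8455-fold lower against a floor of 3 counts per library (adjusted p = 0.00152). Rpl3 itself stood at 1554 and 1567 TPM in WT and at 2307 and 2041 TPM in LEF1cKO (0.40 ± 0.15, adjusted p = 0.475). Summed, the pair held 1727 and 1693 CPM in WT and 1741 and 1538 in LEF1cKO, so that the groups overlapped. Gm10260, a copy of the small-subunit gene Rps18, stood at 1143 and 1120 TPM in WT and at 1.36 and 1.49 TPM in LEF1cKO (-9.68 ± 0.14, adjusted p = 7.67e-05). Rps18 stood at 2088 and 2004 TPM in WT and at 3106 and 2958 TPM in LEF1cKO (0.50 ± 0.14, adjusted p = 0.324). That pair summed to 1002 and 951 CPM in WT and to 1014 and 960 in LEF1cKO. Rps18 has a further called copy, Gm11361, which held 86.6 and 88.1 CPM in WT and 0 counts in both LEF1cKO libraries. With it the sums were 1089 and 1039 CPM in WT against 1014 and 960 in LEF1cKO, so that the groups no longer overlapped and the log2 difference was -0.11. The copy Gm10260 differs from Rps18 at 4 of 456 coding bases, so that 60.1% of the windows are shared, and Rpl3-ps1 from Rpl3 at 2 of 1209.

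Over the 56 genes, 49 had a protein-coding relative by alignment, 39 different ones. The sum of copy and relative had a median log2 difference of -0.05 and ranged from -4.89 to 0.59, with 46 of the 49 under 0.5 in size. A wider set took all 62 called genes with such a relative, whatever the size or direction of their change. Their 47 relatives, each summed with all its called copies, gave 21 sums that overlapped between the groups. Another 21 were separate and lower and 5 separate and higher, beside 21.0% and 21.1% of all genes tested, so lower sums were the more frequent. The median log2 difference of the 47 sums was -0.06, and they ranged from -4.89 to 3.06. Over the 49 falls with a relative, the relatives alone had a median of 0.14, and 1 of them, Kpna2, was called. Gene values of other pairs are uncertain for the same reason: Ahcy, the enzyme that clears S-adenosylhomocysteine, differed by 1.06 ± 0.14 (adjusted p = 0.0502) and its copy Gm4737 fell by 2.75 ± 0.18 on the log2 scale (adjusted p = 0.00376), while their sum differed by -0.30 (adjusted p = 0.657). The call of Gm4737 held whichever library was left out (at most 0.0213), as did those of Gm13394 (0.0261), Gm10359 (0.0452), Rpl3-ps1 (0.0102) and Gm10260 (0.00253). Pseudogenes as a class took 4.17% and 3.81% of the counts in WT and 3.42% in each LEF1cKO library.

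**Figure D4:**
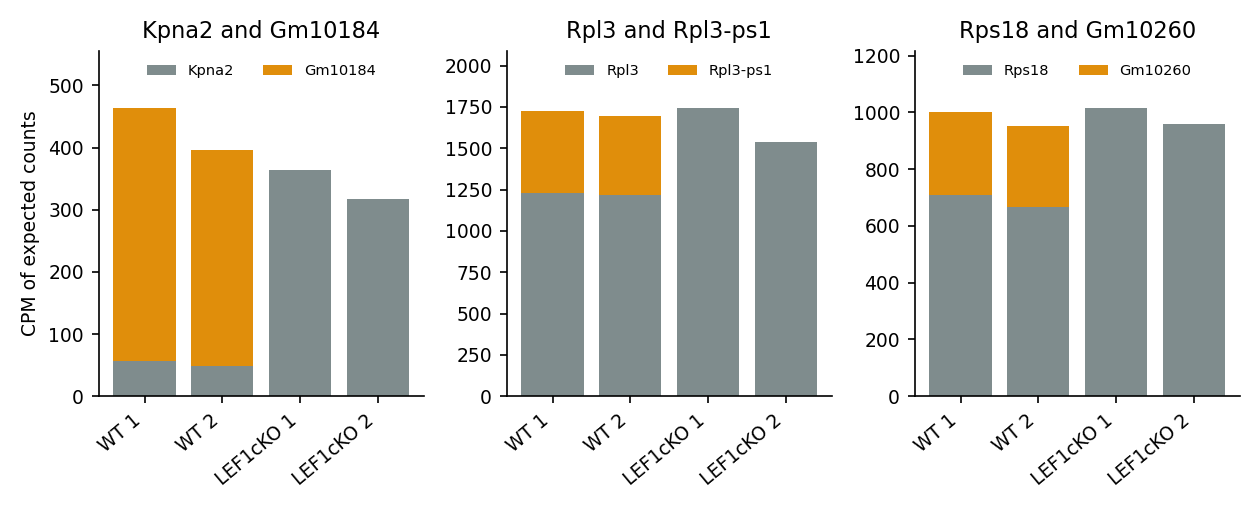
CPM (counts scaled to library size) of 3 genes (grey) and their near-identical copies (orange), stacked, in each of the 4 libraries. The orange part is present in both WT libraries and is too small to see in both LEF1cKO libraries, while the height of the whole bar overlaps between the groups for Rpl3 and for Rps18, drawn without its further copy Gm11361, and is lower in LEF1cKO for Kpna2.

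Called genes were spread over the genome, with 1.29% of the tested genes on chromosome 15 and 0.165% on chromosome 19 as the extremes among chromosomes with a call. Within 10 Mb of Lef1, 1 of 148 genes tested was called (0.676%). It was RP23-349J3.8, a copy of Eno1 at chr3:130929366-130930670, at 8.52 and 8.46 TPM in WT and at 0.04 and 0.08 TPM in LEF1cKO (-7.07 ± 0.36, adjusted p = 0.00197). This copy differs from Eno1 at 47 of 1302 coding bases and shares 10.4% of its windows, so that most reads can be told apart. Summed with its 3 near-identical genes, the family differed by -0.12 (adjusted p = 0.872). The copy held 6.72 and 6.59 CPM of the family's 534 and 529 CPM in WT. The family value therefore cannot show whether this copy changed.

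The 2 LEF1cKO libraries differed from each other more than the WT libraries did, in genes that mark parts of the follicle. Their median absolute log2 difference per gene was 0.218, against 0.109 between the WT libraries, and 859 against 270 genes differed by 2-fold or more. Genes of the sebaceous gland, which secretes the skin's lipids, were higher in replicate 2 by a median of 1.70 on the log2 scale. Scd1, a fatty acid desaturase, stood at 96.1 TPM in replicate 1 and at 351 TPM in replicate 2, with the WT libraries at 129 and 115 TPM between them. All 13 antigen presentation genes were higher in replicate 2, by a median of 0.96, and 22 of 24 interferon response genes, by a median of 0.70.

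Genes of the hair-forming lineage went the other way within the knockout. Those of the inner root sheath, the layer that moulds the hair, were lower in replicate 2 by a median of 1.13, a difference of -1.13. Krt28, a keratin of that layer, stood at 147 TPM in LEF1cKO replicate 1 and at 43.9 TPM in replicate 2, against 175 and 146 TPM in WT. The matrix transcription factor Msx1 stood at 34.3 and 10.9 TPM in the knockout libraries and at 45.5 and 30.8 TPM in WT, and Dlx3, which hair shaft formation needs, at 124 and 64.7 TPM and at 123 and 102 TPM. For Krt28, Msx1 and Dlx3 replicate 1 was near or within the WT range and replicate 2 below it. None of them passed the test between the groups. Other genes of the lineage were below WT in both knockout libraries. Among them, Krt27 stood at 16.3 and 12.3 TPM in WT and at 10.15 and 4.65 TPM in LEF1cKO. Of 11 inner root sheath genes tested, none was called, 6 were separate and lower and 2 separate and higher (median -0.80). The 11 hair shaft genes gave the same counts and a median of -0.77. Over all genes tested, 21.0% were separate and lower and 21.1% separate and higher. In the double knockout Msx1 stood at 1.11 and 1.17 TPM and Dlx3 at 5.52 and 6.61 TPM. Uty, a gene of the Y chromosome, stood at 15.6 TPM in LEF1cKO replicate 1 and at 0.51 TPM in replicate 2, against 0.24 and 0.43 TPM in WT and 0.60 and 0.26 TPM in the double knockout. Kdm5d, another Y-linked gene, stood at 13.1 TPM in LEF1cKO replicate 1 and at 0.42 to 0.67 TPM in the other 5 libraries. All 6 libraries are labelled as mixed in sex, and LEF1cKO replicate 1 alone held Y-linked RNA above 1 TPM of these 2 genes, so that it differs in this from WT as well. LEF1cKO replicate 2 was also the library with the lower Lef1 level. The part of these differences in the comparison with WT was not tested beyond leaving out each library.

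**Figure D5:**
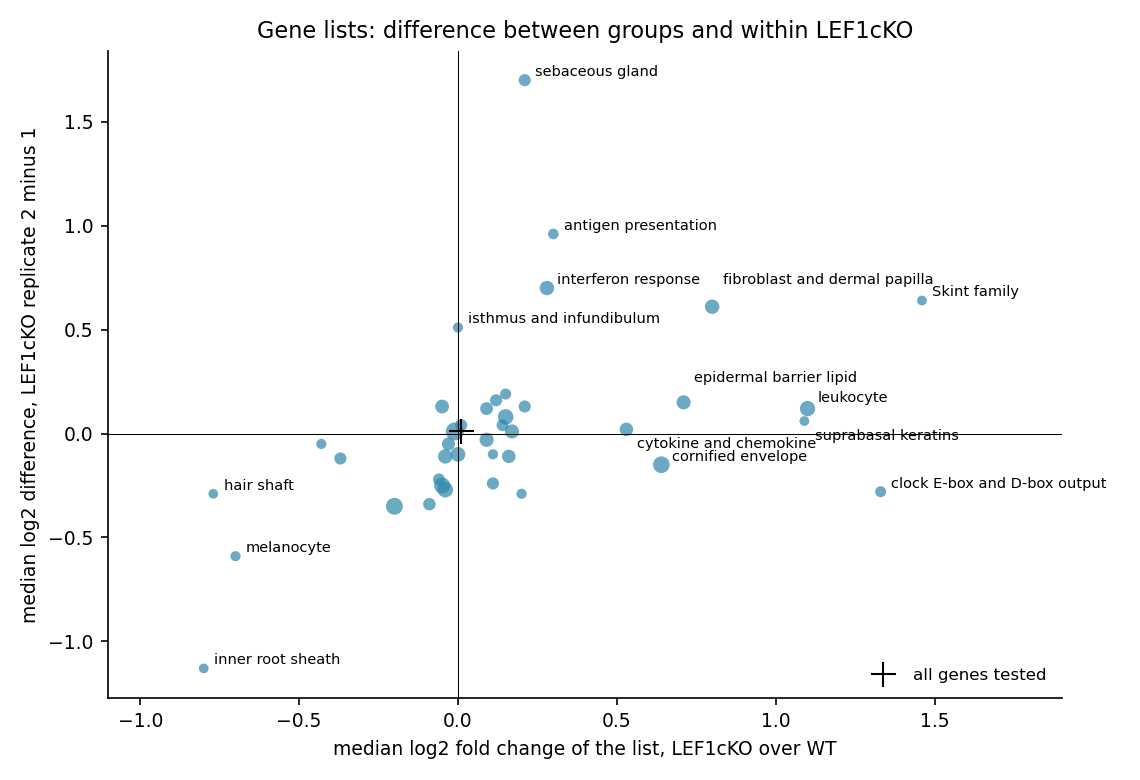
Each point is 1 gene list with at least 10 tested genes, sized by their number; the horizontal axis is the list's median log2 fold change of LEF1cKO over WT and the vertical axis its median log2 difference between LEF1cKO replicates 2 and 1. The suprabasal keratin and leukocyte lists lie far right and near 0 in height, and the clock output list far right and somewhat below 0. The Skint list lies far right and above 0. The sebaceous gland, antigen presentation and inner root sheath lists stand far from 0 in height.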

How the data were processed

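RNA of sorted hair germ cells was sequenced in 6 samples, grouped by title. Bowtie2 2.2.9, RSEM 1.2.30 and the mm10 build are named in the submitters' processing notes, without the annotation release. The expected counts are the authors' RSEM estimates per gene, deposited without normalization, in which reads that match several genes are divided by the model. The TPM columns of the same files also come from RSEM, per the file headers. The deposited series-wide TPM table was left unused. The labels say paired-end, but the deposited effective length was 50 bases below the length for all 46236 genes over 60 bases, so windows of 51 bases were used to compare copies.

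Expected counts were rounded, 92 spike-in entries with 0 counts were dropped, and genes were filtered with filterByExpr by group. All 6 libraries were fitted with edgeR 4.0.16 (R 4.3.3, TMM factors 0.962 to 1.036, quasi-likelihood F test, 3 residual degrees of freedom, biological coefficient of variation 0.232), with calls at an adjusted p of 0.05 over all genes. Depth ran from 40480694 to 63220022 expected counts, and a count of 0 allows up to 3 counts, which is 0.0475 to 0.0741 CPM and covers counting error only. Of the genes listed, 98.9% matched GENCODE vM21, which gave positions, biotypes and coding sequences. Closest protein-coding relatives came from blastn at 90% identity or more over at least 50% of the copy. Predicted genes and called genes with a log2 change below -5 were left out as relatives. Promoters are from RefSeq (GRCm38.p6).

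The comparison and its 48 gene lists were chosen with earlier results of these data known. Named genes were the LEF/TCF genes, Axin2 and sort genes, the 15 largest rises and falls among separate called protein-coding genes at 5 TPM or more, up to 4 called or 2 other members per list, and called copies at 100 TPM or more with their parents; not every one is printed. Dbp, Per1, Per3, Ciart, Hlf, Arntl, Krt1, Krt10, Krt13, Krt79, Skint1, Skint9, Skint10, Plekhn1, RP23-349J3.8, Gm11361, Gm28900, Hsp90aa1, Scd1, Krt28, Msx1, Dlx3, the motifs and the sequences shown were chosen after values were seen. Alternatives were RLE factors, library size only, no filter, 10 CPM in 2 libraries, DESeq2 1.42.0, limma 3.58.1 (voom, log2(TPM + 1) and log2(TPM + 0.1)), only the 4 libraries, protein-coding genes only, a replicate block and leaving out each library. A fit with genes of coding sequences at 95% identity or more over 90% or more merged (1140 genes in 429 families) was added after the data were seen.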

Additional observations from a re-analysis of the deposited data

How the results depend on the processing

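The number of genes called moved with the filter and the tool. It was 422 with no filter on low counts (216 rises, 206 falls), 626 with DESeq2 (366 rises, 260 falls), 31 with protein-coding genes only (19 rises, 12 falls) and 55 with near-identical genes merged (29 rises, 26 falls), an alternative chosen after the data were seen. Leaving out each library in turn gave 78 to 138 calls, 17 to 63 rises and 51 to 76 falls. Rises numbered 27 by limma on log2(TPM + 1) and 16 with only the 4 libraries compared. Falls numbered 48 at 10 CPM or more, 125 by limma on log2(TPM + 1) and 116 on log2(TPM + 0.1). Genes separate and higher numbered 2046, and separate and lower 2461, at 10 CPM or more, where fewer genes are tested, and the lower ones 2632 on the TPM scale. The causes of the other shifts were not tested.

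Lef1 was lower under every alternative run. Its log2 change was -0.92 by DESeq2, which called it (adjusted p = 0.043), and ran from -1.36 to -0.58 with a library left out. Direction turned, without a call on the other side, for Tcf7l2 (-0.01 to 0.22 with a library left out), Tcf7l1 (-0.39 to 0.01) and, with near-identical genes merged, Kpna2 (-0.36), Gm10359 (-0.10), Ahcy (-0.30), Rpl3 (-0.08) and Rps18 (-0.01). Of 1123 alternative values for the 64 genes whose changes are printed, 889 kept direction and side of the threshold, 155 lost the call and 72 gained one. Besides the losses given with each gene, fitting protein-coding genes only ended the calls of Tef (0.0545), Rora (0.0586), Krt2 (0.0609), Skint7 (0.0552), Skint9 (0.0747), Skint11 (0.0747), Ppl (0.0623), Ankrd35 (0.0589), Sqrdl (0.0513) and Gm10184 (0.0558). Limma voom ended those of Skint7 (0.0824), Skint9 (0.0975), Skint11 (0.0738) and Ankrd35 (0.0636). Limma on log2(TPM + 1) also ended those of Perm1 (0.0642), Pkhd1l1 (0.0507), Ankrd35 (0.0893) and Sqrdl (0.0777). Limma on log2(TPM + 0.1) ended those of Pkhd1l1 (0.0672) and Ankrd35 (0.0629) too. All these are adjusted p-values, and not every loss is listed.

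Same-numbered samples did not deviate together (correlations of -0.0421, 0.0558 and -0.0276), so the numbers do not pair the samples. With a replicate block 80 genes were called, 26 rises and 54 falls, and Lef1 changed by -0.95. The block ended 12 of the 36 printed calls, among them Tef (edgeR adjusted p = 0.0712), Nr1d2 (0.0724), Skint7 (0.0549) and Ankrd35 (0.0772). Those of Gsg1l (0.0532), Pkhd1l1 (0.0532), Pianp (0.0539) and Hddc3 (0.0549) ended as well.

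With 2 libraries a group, small changes go uncalled. Values of genes with near-identical copies are limited by how reads were divided, and genes under 1 TPM by depth.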

Other observations

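Heat shock genes were lower in LEF1cKO without passing the test. Of 17 tested, none was called, 11 were separate and lower, 2 separate and higher, and the median log2 difference was -0.37, beside 0.006 over all genes. Hspa1a, an inducible HSP70 chaperone, stood at 698 and 836 TPM in WT and at 244 and 137 TPM in LEF1cKO (-2.07 ± 0.34, adjusted p = 0.0865 by edgeR). Its neighbour Hspa1b stood at 1176 and 1520 TPM in WT and at 493 and 370 TPM in LEF1cKO (-1.71 ± 0.24, adjusted p = 0.0507). The 2 genes share 82.2% of their 51-base windows, and their sum differed by -1.84 ± 0.27 (adjusted p = 0.0788). Hsp90aa1, an inducible HSP90 chaperone, stood at 872 and 992 TPM in WT and at 573 and 442 TPM in LEF1cKO (-0.82 ± 0.18, adjusted p = 0.187). In all 3 genes both knockout libraries were below both WT libraries. The cause was not tested.

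Signalling genes of the follicle gave no call either. Id2, a target of BMP signalling, stood at 50.3 and 50.9 TPM in WT and at 29.7 and 21.3 TPM in LEF1cKO (-1.06 ± 0.20, adjusted p = 0.122). Shh, the hedgehog ligand of the growing follicle, stood at 12.5 and 13.8 TPM in WT and at 7.55 and 9.72 TPM in LEF1cKO (-0.69 ± 0.15, adjusted p = 0.184). Hhip, an inhibitor that hedgehog signalling induces, went the other way, from 3.46 and 4.65 TPM in WT to 10.46 and 8.58 TPM in LEF1cKO (1.11 ± 0.23, adjusted p = 0.165). Of 12 hedgehog genes, 4 were separate and higher and 2 separate and lower, with a median of 0.11. Tgfbr2, a TGF-beta receptor, stood at 20.4 and 18.6 TPM in WT and at 31.6 and 40.6 TPM in LEF1cKO (0.81 ± 0.13, adjusted p = 0.0857). Lgr6, a receptor that marks stem cells of the isthmus, stood at 31.3 and 42.6 TPM in WT and at 68.6 and 96.1 TPM in LEF1cKO (1.08 ± 0.24, adjusted p = 0.192). All 5 genes were separate between the groups. Of 12 melanocyte genes, 7 were separate and lower and none separate and higher, with a median of -0.70, and their levels summed to 670 and 462 TPM in WT and to 435 and 289 TPM in LEF1cKO. Col1a1, a collagen of fibroblasts, stood at 43.0 and 15.2 TPM in WT and at 88.2 and 206 TPM in LEF1cKO (2.27 ± 0.56, adjusted p = 0.242), so that the libraries of a group differed by over 2-fold.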
